A study of Homo sapiens with 24 samples.

Results

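The comparison asked which genes respond to oncogenic RAS more or less when *HMGA1* is low. It is the interaction of hairpin and RAS, (RIS+shHMGA1 minus shHMGA1) minus (RIS minus growing), over the mRNA sequencing counts of all 24 samples of the series, 6 biological replicates in each of 4 groups. All 4 groups are IMR90 cells, normal human lung fibroblasts, that were retrovirally infected with ER:HRAS(G12V), an oncogenic HRAS fused to an oestrogen receptor domain that 4-hydroxytamoxifen (4OHT) switches on. The groups called growing and RIS carried the empty MSCV vector, and the groups called shHMGA1 and RIS+shHMGA1 carried the same vector with a miR30-based hairpin against *HMGA1*. Growing and shHMGA1 cells received no 4OHT, whereas RIS (RAS-induced senescence) and RIS+shHMGA1 cells received it for 6 days. The hairpin groups rest on 1 hairpin construct in a bulk infected culture, so that an effect of lowering *HMGA1* and another effect of that construct cannot be told apart, and in bulk RNA fewer cells of a kind and less RNA per cell cannot be told apart either. An interaction of +1 on the log2 scale means that RAS moved a gene 2-fold further upward in hairpin cells than in vector cells.

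HMGA1 is an abundant architectural chromatin protein that binds the minor groove of AT-rich DNA and forms part of senescence-associated heterochromatic foci, the condensed chromatin bodies of fibroblasts with active RAS. Oncogenic RAS signals through the RAF, MEK and ERK kinases. In fibroblasts it first drives growth and then a durable exit from the cell cycle, with loss of matrix and contractile gene expression and with secretion of cytokines, chemokines and proteases, the senescence-associated secretory phenotype (SASP). Feedback inhibitors of the ERK pathway are part of the same response.

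Sequencing depth was 8698070 to 23103424 counts per sample. Before any contrast, the library labelled growing replicate 4 and the library labelled RIS replicate 2 stood apart from their groups. In a principal component analysis of log2 CPM (counts relative to TMM-scaled library size), on the first axis, the library labelled growing replicate 4 scored 77.3, against −84.3 to −57.2 in the other 5 growing samples, and the library labelled RIS replicate 2 scored −77.1, against 16.8 to 62.1 in the other 5 RIS samples. Both carry the empty vector, so both enter the RAS response of vector cells and neither enters that of hairpin cells. Results are therefore given over the 24 samples as labelled and over the 22 that remain without those 2 libraries, in which every other replicate was kept. The samples numbered 5 and 6 of RIS and of RIS+shHMGA1 scored below the 1 to 4 numbered ones of their group that were kept (16.8 and 22.2 against 56.0 to 62.1, and 52.5 and 58.2 against 78.5 to 84.1). All 10 fibroblast markers exceeded 1 CPM on average in every group. Of 22 markers of epithelial, endothelial, blood and muscle cells, 6 or 7 did per group, with a summed level of 211 to 265 CPM in RIS+shHMGA1 and 285 to 872 CPM in the other groups. Over all samples the epithelial *KRT8* and *KRT18* lay at 1.78 to 11.4 and 26.4 to 49.1 CPM. The endothelial *TEK* lay at 13.1 to 123 and the leukocyte *CD68* at 40.2 to 105 CPM. The muscle genes *MYH11*, *CNN1* and *ACTG2* lay at 0.401 to 3.13, 16.3 to 239 and 75.9 to 553 CPM. The other members reached at most 1.27 CPM in any sample (*PECAM1*), with *EPCAM* up to 1.26 and *CD14* up to 1.23 CPM. Among the lowest, *CDH1*, *KRT5*, *CD3E* and *LYZ* reached at most 0.155 CPM.

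*HMGA1* itself (chr6:34204650-34214008 on the plus strand, build GRCh37) was low in every hairpin sample and did not overlap between vector and hairpin cells. In CPM, growing samples lay at 639 at the lowest, 683 at the median and 861 at the highest, and RIS samples at 641 at the lowest, 728 at the median and 786 at the highest. The shHMGA1 samples lay at 54.4 at the lowest, 116 at the median and 143 at the highest, and the RIS+shHMGA1 samples at 60.0 at the lowest, 207 at the median and 262 at the highest. Among hairpin samples, RIS+shHMGA1 replicates 1 to 4 (197 to 262 CPM) kept more *HMGA1* than shHMGA1 replicates 1 to 4 (98.7 to 143 CPM), whereas replicates 5 and 6 had similar levels in both (54.4 to 75.1 CPM). The interaction of *HMGA1* was 0.73 ± 0.42 (log2, SE) over 22 samples and 0.71 ± 0.41 over 24, which did not pass the test (edgeR quasi-likelihood, adjusted p = 0.993 and 0.427). *HMGA2*, the related gene, was at 521 to 1116 CPM over all 24 samples with hairpin values of −0.21 ± 0.16 in growing and −0.31 ± 0.16 in RIS cells over 22 samples (adjusted p = 0.326 and 0.114), against −2.78 and −2.06 for *HMGA1* (adjusted p = 5.18e-06 and 2.14e-04). Its interaction was −0.10 ± 0.22 over 22 samples and −0.14 ± 0.22 over 24.

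With the labels as given, no gene passed both thresholds for the interaction (adjusted p under 0.01 and an absolute log2 value over 0.58), 0% of the 13356 genes tested. Over 22 samples 1 of 13416 genes passed, 0.00745%, and it was *RGS4*. At an adjusted p under 0.05 with the same size threshold, 2 genes passed over 24 samples (0.015%, *RGS4* and *ALDH1A3*) and 4 over 22 (0.0298%, those and *SLC16A6* and *TRPC6*). At an unadjusted p under 0.05, 837 genes had a higher response in hairpin cells (6.27%) and 534 a lower one (4%) over 24 samples, and 235 (1.75%) and 277 (2.06%) did over 22. With total counts alone as library size, which lowers the median interaction of all genes to −0.41 over 24 samples and −0.30 over 22, the split was 116 higher and 4327 lower over 24, and 48 and 2966 over 22. The smallest adjusted p over 24 samples was 0.0279. DESeq2 called 5 genes over 24 samples and 24 over 22 at the same thresholds.

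The RAS response itself was broad in both kinds of cell once the 2 libraries were left out. Over 22 samples, RAS changed 5331 genes in vector cells (39.7%), of which 2579 rose (19.2% of all genes) and 2752 fell (20.5%), and 5959 in hairpin cells (44.4%), of which 3023 rose (22.5%) and 2936 fell (21.9%). Of these, 4759 passed in both, which is 89.3% of the vector list and 79.9% of the hairpin list, and 4758 had the same direction. Across genes, which are not independent replicates, the 2 responses had a Pearson r of 0.965 and a slope of 0.98 (hairpin on vector). Over 24 samples 0 genes passed the thresholds for RAS in vector cells (0%) and 5220 did in hairpin cells (39.1%), r was 0.908 and the slope was 1.71. Some vector values lay just above the cutoff of 0.01, such as that of *SLC16A6* (1.67 ± 0.37, edgeR adjusted p = 0.0148), so 0 calls do not mean 0 response. The SD of the vector response over genes was 0.61 log2 units with the 2 libraries and 1.13 without them, against 1.15 in hairpin cells both times.

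**Figure D1:**
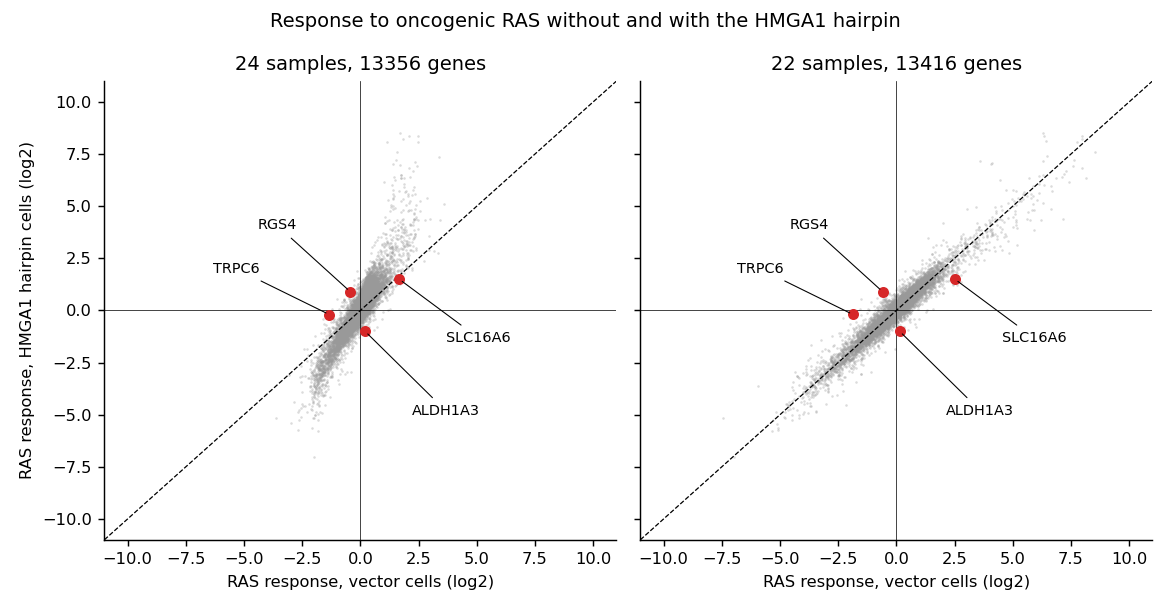
RAS response of each gene in vector cells (x axis, log2) against hairpin cells (y axis, log2), over 24 samples (left) and 22 samples (right), with the dashed line marking equal responses. Over 24 samples the points follow a slope of 1.71, over 22 samples a slope of 0.98, and *RGS4*, *TRPC6*, *ALDH1A3* and *SLC16A6* (red) lie off the line on the right.

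Precision set how much of a difference could be seen. Among the 10937 genes with a log2 CPM of at least 2 in the 22-sample fit, the median SE of the interaction was 0.20, and the 95% confidence interval lay within ±0.58 for 55.6% of genes and within ±1 for 92.1%. Over 24 samples these shares were 28.9% and 65.5% of 10936 genes, with a median SE of 0.25.

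*RGS4* (chr1:163038565-163046592 on the plus strand, GRCh37), a GTPase-activating protein that shuts off signalling by heterotrimeric G proteins, changed in opposite directions in vector and hairpin cells. Growing samples had 26.9, 31.2, 33.6, 31.2 and 25.8 CPM (replicates 1, 2, 3, 5 and 6), and shHMGA1 samples lay at 10.7 at the lowest, 15.5 at the median and 18.0 at the highest. RIS samples had 19.4, 19.6, 14.9, 22.2 and 22.1 CPM (replicates 1, 3, 4, 5 and 6), and RIS+shHMGA1 samples lay at 24.2 at the lowest, 27.7 at the median and 31.0 at the highest. All shHMGA1 samples were thus below all 5 growing samples, and all RIS+shHMGA1 samples were above all 5 RIS samples. The libraries labelled growing replicate 4 and RIS replicate 2 had 14.7 and 22.6 CPM.

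Over 22 samples, with RAS *RGS4* fell by 0.59 ± 0.13 in vector cells (log2, SE, adjusted p = 3.83e-04) and rose by 0.90 ± 0.12 in hairpin cells (adjusted p = 6.43e-07). The interaction was 1.50 ± 0.18, with a 95% confidence interval of 1.13 to 1.86 and an adjusted p of 1.49e-04. Over 24 samples it was 1.33 ± 0.22 with an adjusted p of 0.0279. Taken within each replicate number, it was positive in 6 of 6 numbers, from 0.62 to 2.01. It passed the thresholds in 17 of 19 other analyses of the 22 samples. The 17 include an adjusted p under 0.05 on the same fit, which a gene called at 0.01 cannot fail. The exceptions were glmTreat, which tests against the size threshold itself (adjusted p = 0.0257), and the fit without replicate 3 (log2 1.44, adjusted p = 0.0138).

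The promoter windows of 3 of the 4 genes past an adjusted p of 0.05 over 22 samples (*SLC16A6* has no entry) are printed because HMGA1 is a DNA-binding protein and the interaction at these genes went both ways. They are RefSeq sequence of build GRCh38.p14, 250 bases before to 50 after a gene start, written 5′ to 3′ on the gene's strand, with runs of at least 6 letters that are each A or T in capitals. RGS4 has 4 windows in that table, of which the first is shown.
RGS4, chr1:163068621-163068920, plus strand: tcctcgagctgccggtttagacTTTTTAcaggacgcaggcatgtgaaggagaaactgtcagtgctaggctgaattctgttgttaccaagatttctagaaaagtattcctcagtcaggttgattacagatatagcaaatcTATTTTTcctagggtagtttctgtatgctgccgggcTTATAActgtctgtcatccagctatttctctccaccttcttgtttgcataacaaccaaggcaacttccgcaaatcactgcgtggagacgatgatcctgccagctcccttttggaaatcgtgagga
TRPC6, chr11:101583958-101584257, minus strand: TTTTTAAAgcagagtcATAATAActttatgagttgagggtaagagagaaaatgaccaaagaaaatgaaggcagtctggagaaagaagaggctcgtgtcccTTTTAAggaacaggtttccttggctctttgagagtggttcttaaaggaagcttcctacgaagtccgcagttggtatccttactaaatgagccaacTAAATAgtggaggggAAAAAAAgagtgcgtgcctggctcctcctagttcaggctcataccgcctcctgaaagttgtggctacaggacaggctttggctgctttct
ALDH1A3, chr15:100879581-100879880, plus strand: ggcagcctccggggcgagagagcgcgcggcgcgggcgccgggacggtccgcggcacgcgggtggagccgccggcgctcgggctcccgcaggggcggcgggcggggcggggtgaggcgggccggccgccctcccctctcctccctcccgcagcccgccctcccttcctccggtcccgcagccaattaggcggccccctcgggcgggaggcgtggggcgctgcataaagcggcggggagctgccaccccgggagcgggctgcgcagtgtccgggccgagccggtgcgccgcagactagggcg
*RGS4* and *TRPC6*, whose interaction values were positive, had an A+T content of 55.3% and 55.3% with 3 and 5 such runs, the longest of 7 and 8 bases. *ALDH1A3*, whose value was negative, had 18.3% and 0 runs. Over all 35116 promoter windows of the table the median A+T content was 41.3%, and 61.2% held at least 1 run. Binding was not measured here, and these letters are a description only.

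*TRPC6* (chr11:101322295-101743293 on the minus strand, GRCh37), a calcium-permeable cation channel, was low in abundance and its fall with RAS was seen in vector cells. Growing samples had 6.94, 9.44, 10.1, 12.4 and 12.4 CPM (without replicate 4) and RIS samples 3.48, 3.45, 3.05, 1.69 and 2.28 (without replicate 2), which did not overlap. The shHMGA1 samples lay at 3.57 at the lowest, 5.25 at the median and 6.31 at the highest CPM and the RIS+shHMGA1 samples at 3.18 at the lowest, 4.31 at the median and 6.73 at the highest, which overlapped. It fell by 1.87 ± 0.22 in vector cells (adjusted p = 1.21e-07), and the value in hairpin cells was −0.20 ± 0.20 (adjusted p = 0.395). The interaction was 1.67 ± 0.30 over 22 samples (adjusted p = 0.0352) and 1.14 ± 0.43 over 24 (adjusted p = 0.426). With the 2 libraries in place, growing samples reached down to 3.60 CPM and RIS samples up to 7.71. Its count in a sample was as low as 20 reads.

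*ALDH1A3* (chr15:101417919-101456831 on the plus strand, GRCh37), an aldehyde dehydrogenase that makes retinoic acid, was the gene whose interaction changed least when the 2 libraries were left out among those 4. Growing samples had 11.1, 10.3, 8.47, 8.01 and 8.88 CPM and RIS samples 8.86, 9.70, 8.40, 15.4 and 9.31, which overlapped. The shHMGA1 samples lay at 11.9 at the lowest, 14.2 at the median and 15.0 at the highest CPM, above every growing sample, and the RIS+shHMGA1 samples at 5.46 at the lowest, 7.00 at the median and 8.53 at the highest, below every shHMGA1 sample. It fell with RAS by 1.01 ± 0.14 in hairpin cells (adjusted p = 1.38e-06), and the value in vector cells was 0.14 ± 0.15 (adjusted p = 0.422). The interaction was −1.15 ± 0.21 over 22 samples and −1.21 ± 0.20 over 24 (adjusted p = 0.0352 and 0.0279). Within replicate numbers of all 24 samples, which are not established pairs, it was negative in 6 of 6. *ALDH1A3* too was named for its small p in these samples, so these signs are not a separate result.

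*COLEC12*, a collectin scavenger receptor, was chosen after its values were seen and had a rise with RAS in vector cells. Growing samples had 6.47, 6.58, 5.34, 5.66 and 6.27 CPM and RIS samples 13.8, 11.5, 12.7, 26.4 and 25.3, in which replicates 5 and 6 were the high ones. It rose in vector cells by 1.56 ± 0.24 (adjusted p = 4.27e-06), and the value in hairpin cells was 0.082 ± 0.21 (adjusted p = 0.74). Its interaction of −1.48 ± 0.31 over 22 samples had an adjusted p of 0.0942, and with the replicate number as a block it passed (−1.48, adjusted p = 0.00967).

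**Figure D2:**
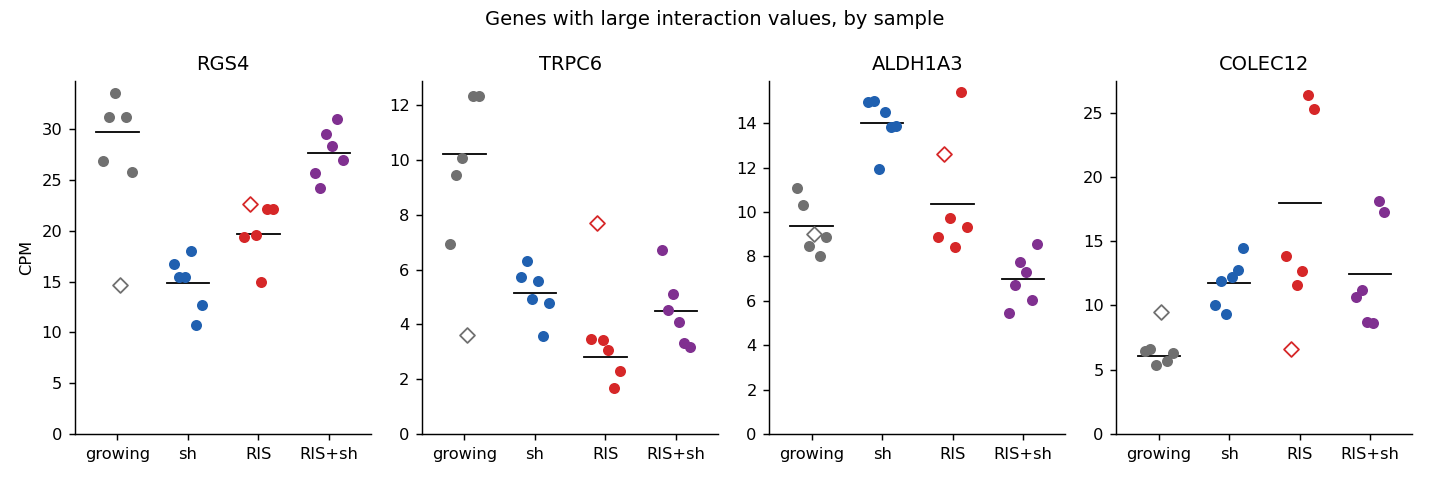
CPM of *RGS4*, *TRPC6*, *ALDH1A3* and *COLEC12* in each sample of the 4 groups (sh, hairpin), with bars at the mean without the 2 libraries that stood apart (open diamonds). For *RGS4*, all 6 RIS+shHMGA1 samples lie at 24.2 CPM or more and all 6 shHMGA1 samples at 18.0 CPM or less. Without the open diamonds, growing and RIS lie in the opposite order.

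Over 22 samples a group of 4 RAS-induced genes, chosen after their values were seen, had a smaller rise in hairpin cells by point value, and the hairpin raised each of them in growing cells. Each mean was then higher in shHMGA1 than in growing cells before RAS, though *EREG* overlapped (growing up to 125 CPM, shHMGA1 from 115 CPM). The interaction also equals the hairpin value in RIS cells minus that in growing cells. A choice by negative interaction therefore favours genes with a high hairpin value in growing cells, and that rise is not a separate result. Over 24 samples the hairpin values in growing cells were 0.58 ± 0.36 for *SLC16A6*, 0.69 ± 0.47 for *MAP3K8*, −0.10 ± 0.45 for *EREG* and 1.49 ± 0.46 for *IL24*. None of these passed the thresholds. Over 22 samples the hairpin changed 348 genes in growing cells (2.59%) and 1677 in RIS cells (12.5%) at the same thresholds. *SLC16A6* (chr17:66263167-66287408 on the minus strand, GRCh37), a transporter of the monocarboxylate family, had 67.1, 76.8, 68.2, 64.7 and 58.6 CPM in growing samples, and 113 at the lowest, 158 at the median and 188 at the highest in shHMGA1 samples. RIS samples had 351, 366, 326, 431 and 447 CPM, and RIS+shHMGA1 samples lay at 370.2 at the lowest, 436 at the median and 558 at the highest. The growing and shHMGA1 samples did not overlap, and the RIS and RIS+shHMGA1 samples did. The hairpin raised it by 1.22 ± 0.13 in growing cells (adjusted p = 3.80e-06), and the value in RIS cells was 0.20 ± 0.13 (adjusted p = 0.22). RAS raised it by 2.52 in vector and 1.49 in hairpin cells, an interaction of −1.03 ± 0.18 (adjusted p = 0.0352). Over 24 samples the interaction was −0.18 ± 0.51 (adjusted p = 0.846), with 295 CPM in the library labelled growing replicate 4 and 82.8 in the one labelled RIS replicate 2.

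*MAP3K8*, a kinase upstream of ERK and of the NF-κB pathway, went from 1.40 ± 0.319 CPM (SD, n = 5) in growing to 8.44 ± 1.89 CPM (SD, n = 5) in RIS, and from 4.05 ± 0.852 CPM (SD, n = 6) in shHMGA1 to 9.41 ± 2.19 CPM (SD, n = 6) in RIS+shHMGA1. It rose by 2.62 and 1.22 in vector and hairpin cells, and its interaction of −1.40 ± 0.28 over 22 samples had an adjusted p of 0.0654. *EREG*, a ligand of the EGF receptor family, went from 82.8 ± 27.3 CPM (SD, n = 5) in growing to 595 ± 89.4 CPM (SD, n = 5) in RIS, and from 143 ± 16.3 CPM (SD, n = 6) in shHMGA1 to 517 ± 58.6 CPM (SD, n = 6) in RIS+shHMGA1. It rose by 2.85 and 1.85, with an interaction of −0.99 ± 0.22 and an adjusted p of 0.106. *IL24*, a cytokine of the IL-10 family, went from 26.5 ± 10.9 CPM (SD, n = 5) in growing to 107 ± 17.2 CPM (SD, n = 5) in RIS, and from 139 ± 39.6 CPM (SD, n = 6) in shHMGA1 to 250.4 ± 29.5 CPM (SD, n = 6) in RIS+shHMGA1. It rose by 2.02 and 0.84, with an interaction of −1.17 ± 0.30 and an adjusted p of 0.232. Among these genes *IL24* was the one still higher with the hairpin after RAS (1.23 ± 0.21 in RIS cells, adjusted p = 7.51e-04), whereas the hairpin values of *MAP3K8* and *EREG* in RIS cells were 0.15 ± 0.17 and −0.20 ± 0.15 (adjusted p = 0.503 and 0.301). In growing cells the hairpin raised all 3 over 22 samples, by 1.55, 0.79 and 2.40. Over 24 samples the interactions were −0.31 ± 0.63, 0.13 ± 0.64 and −0.052 ± 0.64, each smaller than its SE.

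**Figure D3:**
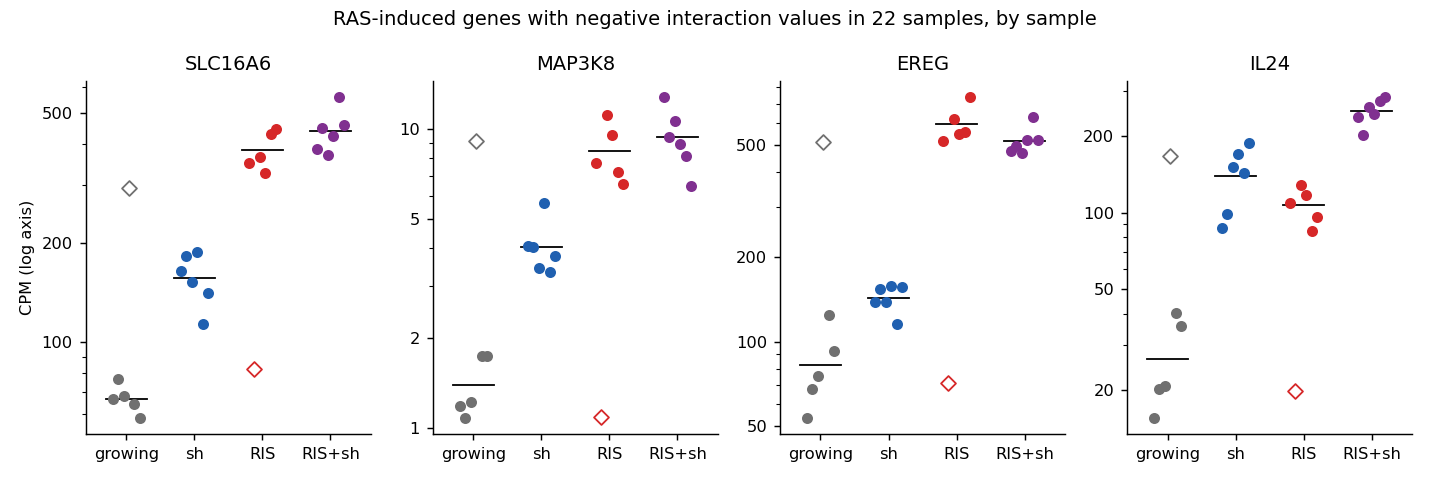
CPM (log axis) of *SLC16A6*, *MAP3K8*, *EREG* and *IL24* in each sample, with bars at the mean without the 2 libraries that stood apart (open diamonds). Every shHMGA1 sample of *SLC16A6* and *MAP3K8* lies above the 5 growing samples, their RIS and RIS+shHMGA1 samples overlap, those of *IL24* do not, and the open diamonds lie near the opposite vector group.

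The inflammatory SASP list (cytokines, chemokines and NF-κB target genes) turned its direction between the 2 fits. Of 23 tested members, 21 had positive and 2 negative interaction values over 24 samples, with a median of 1.58 and 10 higher at an unadjusted p under 0.05 (6.27% of all genes). Over 22 samples 5 were positive and 18 negative, with a median of −0.21, 1 higher and 3 lower (1.75% and 2.06% of all genes). Over all tested genes, for this and the later lists, 7045 of 13356 values were negative over 24 samples and 6819 of 13416 over 22. Their medians were −0.031 and −0.0048. No member of the SASP list passed the thresholds in either fit. RAS raised 22 members in vector cells and 21 in hairpin cells over 22 samples (19.2% and 22.5% of all genes rose), with median responses of 2.93 and 2.70. The lower ones were *IL24* (above), *CSF3*, the granulocyte colony-stimulating factor (−0.98 ± 0.31, RAS response 5.80 in vector and 4.82 in hairpin cells, adjusted p = 0.768), and *LIF*, an IL-6 family cytokine (−0.81 ± 0.25, 3.37 and 2.56, adjusted p = 0.701).

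*CCL2*, which recruits monocytes, was the member with the largest positive value over 22 samples. Its RIS samples had 19.4, 28.9, 24.3, 24.8 and 24.2 CPM and its RIS+shHMGA1 samples lay at 65.2 at the lowest, 108 at the median and 257 at the highest, with no overlap, and RIS+shHMGA1 replicates 5 and 6 were the 2 highest. Growing samples had 8.65, 9.99, 13.1, 13.9 and 11.5 CPM and shHMGA1 samples lay at 20.6 at the lowest, 30.8 at the median and 39.2 at the highest, again with no overlap. Its interaction was 1.12 ± 0.40 (adjusted p = 0.958).

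The size of the SASP list's median also differed with the replicate numbers that were kept. With the samples numbered 1 to 4 among those 22, 22 of 23 members had negative values, the median was −0.70, 15 were lower at an unadjusted p under 0.05 and 2 passed the thresholds. Over all genes in that fit, 3.48% were lower and 2.46% higher at that p, and 8 passed the thresholds (0.0594%). These were *RGS4*, which was higher, and *CSF3*, *EREG*, *HEPHL1*, *IL24*, *PTGS2*, *SERPINB4* and *SLC16A6*, which were lower in hairpin cells. *PTGS2* (the inducible cyclooxygenase), *HEPHL1* (a ferroxidase-like protein) and *SERPINB4* (a protease inhibitor) are named here after their values were seen. With the samples numbered 1, 3, 5 and 6, 12 members were negative and 11 positive, with a median of −0.0083, and *RGS4* was the only gene past the thresholds. The difference between the numbers 1 to 4 and 5 to 6 was not tested.

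Cell cycle, matrix and contractile genes, which RAS lowers, also had other medians with and without the 2 libraries. For G2/M and mitosis genes, 27 of 28 values were negative over 24 samples (median −1.28, 7 lower at an unadjusted p under 0.05, against 4% of all genes), and 19 were positive over 22 (median 0.10, 0 at that p in either direction). RAS lowered 28 of them in vector and 27 in hairpin cells over 22 samples (20.5% and 21.9% of all genes fell), with medians of −3.07 and −2.93. S phase and replication genes had a median interaction of −0.71 over 24 samples and 0.076 over 22, and all 28 fell with RAS in both kinds of cell over 22 samples. *MAD2L1*, a spindle checkpoint protein, and *CDK1*, the mitotic kinase, had values of 0.60 ± 0.33 and 0.45 ± 0.34 over 22 samples. *POLE2*, a DNA polymerase epsilon subunit, and *RFC3*, a clamp loader subunit, had 0.44 ± 0.46 and 0.43 ± 0.32. Collagen and matrix genes had a median interaction of −0.67 over 24 samples and −0.10 over 22, negative for 28 and 21 of 30 members, with 24 of 30 falling with RAS in vector and 24 in hairpin cells. *COL3A1*, a fibrillar collagen, had −2.41 ± 1.13 over 24 samples and −0.72 ± 0.69 over 22, and *DCN*, the proteoglycan decorin, had 0.40 ± 0.35 and 0.63 ± 0.32. With numbers 1 to 4 of the 22 samples both turned, to 0.18 and −0.041. Contractile and SRF target genes had a median interaction of −0.69 over 24 samples and 0.052 over 22. In that list *MYOCD*, a cofactor of SRF, was lower at an unadjusted p under 0.05 (−0.88 ± 0.37, with 3 to 8 reads in each RIS+shHMGA1 sample), and *MYH9*, non-muscle myosin, had 0.32 ± 0.25.

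**Figure D4:**
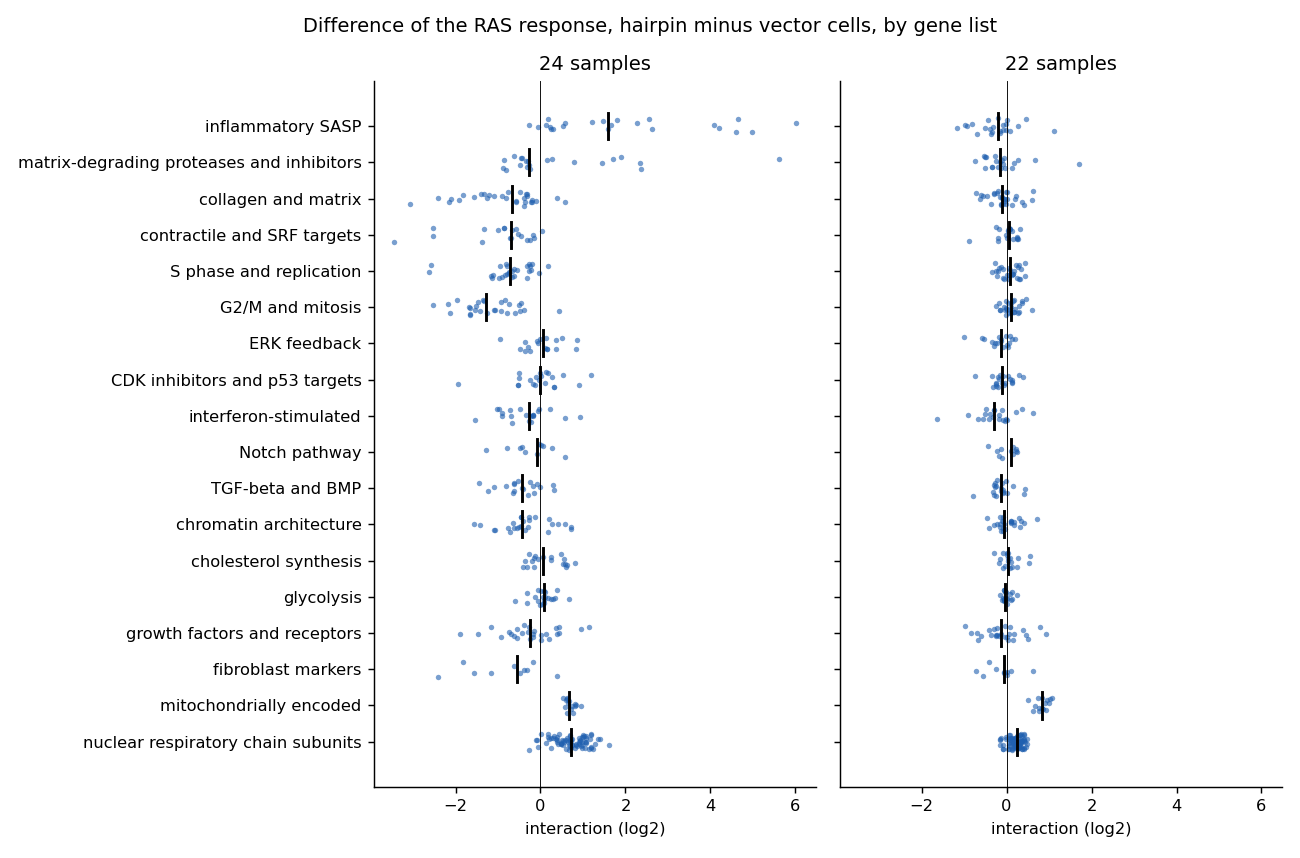
Interaction values (x axis, log2, RAS response in hairpin minus vector cells) of the members of each gene list, over 24 samples (left) and 22 samples (right), with each point 1 gene and each bar the list median. Over 24 samples the inflammatory SASP median is 1.58 and the G2/M median −1.28, over 22 samples they are −0.21 and 0.10, and the mitochondrially encoded genes stay at 0.68 and 0.84.

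Growth factors and their receptors held the most members with lower values at an unadjusted p under 0.05 over 22 samples among the lists, 6 of 27 with 1 higher, against 2.06% and 1.75% of all genes, and none passed the thresholds. The EGF receptor family ligands *AREG* and *NRG1* rose with RAS by 1.67 and 2.68 in vector cells and by 0.83 and 1.97 in hairpin cells, interactions of −0.84 ± 0.30 and −0.71 ± 0.18. *STC1*, a secreted glycoprotein hormone, and *VEGFA*, the angiogenic factor, had −0.68 ± 0.18 and −0.37 ± 0.15. *PDGFB*, a ligand of the PDGF receptors, and the receptor gene *PDGFRA* had −0.99 ± 0.36 and −0.40 ± 0.19, with as few as 6 reads of *PDGFB* in a sample. The member with a higher value was *IGFBP3*, which binds insulin-like growth factors: growing samples had 529.6, 553, 567, 809 and 893 CPM, RIS samples 153, 146, 151, 255 and 303, shHMGA1 samples 209 at the lowest, 239 at the median and 337 at the highest, and RIS+shHMGA1 samples 108 at the lowest, 143 at the median and 204 at the highest. It fell by 1.73 in vector and by 0.81 in hairpin cells, with an interaction of 0.92 ± 0.30 (adjusted p = 0.779). Over 24 samples 2 of 27 members of the list were lower and 0 higher at that p, against 4% and 6.27% of all genes.

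The list of ERK feedback genes also holds *EREG*, a receptor ligand and not a feedback inhibitor. In that list 12 of 18 values were negative over 22 samples (median −0.14), against 6819 of 13416 over all genes. Besides *EREG*, the phosphatase gene *DUSP4* had −0.58 ± 0.27, with a rise of 3.17 in vector and 2.60 in hairpin cells. Interferon-stimulated genes had 18 of 21 negative values over 24 and 18 over 22 samples (medians −0.27 and −0.28), with 1 lower at an unadjusted p under 0.05 over 22 (2.06% of all genes), the transcription factor *IRF1* (−0.51 ± 0.22). *IFI27* and *IFI6*, interferon-induced proteins, had −1.64 ± 0.88 and −0.91 ± 0.54. The value of *IFI27* was −1.62 and −1.95 within numbers 5 and 6 and 0.23 and 0.61 within numbers 1 and 3, and it turned to 0.040 with numbers 1 to 4 of the 22 samples. In TGF-beta and BMP signalling, 16 of 20 were negative over 22 samples (median −0.13), and the ligand *BMP2* rose by 1.26 in vector cells, with 0.47 in hairpin cells and an interaction of −0.79 ± 0.27, while *ID2*, an inhibitor of differentiation, had 0.45 ± 0.35. For the CDK inhibitors and p53 targets 14 of 21 were negative (median −0.10), among them *CDKN2B*, which encodes p15 (−0.75 ± 0.31), and *GADD45A*, a stress response gene, had 0.40 ± 0.13. Matrix-degrading proteases and their inhibitors had 3 of 21 lower at that p over 22 samples, against 2.06% of all genes, *CTSK*, *PLAT* and *PLAU*, with −0.51 ± 0.21, −0.48 ± 0.22 and −0.33 ± 0.16. The stromelysin genes *MMP3* and *MMP10* had 1.89 ± 1.07 and 2.34 ± 1.30 over 24 samples and −0.74 ± 0.40 and −0.53 ± 0.72 over 22.

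In the remaining lists, medians over 22 samples stayed between −0.064 and 0.098. Of the Notch pathway, 6 of 11 values were positive (median 0.10), and the ligand gene *DLL4* and the receptor gene *NOTCH1* had −0.43 ± 0.36 and 0.24 ± 0.29. Of chromatin architecture genes, 11 of 26 were positive (median −0.064), and *SUV39H1*, a histone H3 lysine methyltransferase of heterochromatin, had −0.45 ± 0.18. Of cholesterol synthesis genes, 13 of 19 were positive (median 0.032), and *SC5D*, a desaturase of that pathway, and *STARD4*, a sterol carrier, had 0.54 ± 0.21 and 0.52 ± 0.27. Of glycolysis genes, 7 of 21 were positive (median −0.031), and the glucose transporter gene *SLC2A3* and the lactate transporter gene *SLC16A3* had 0.25 ± 0.13 and −0.16 ± 0.18. Fibroblast markers had a median of −0.060 over 22 samples and −0.55 over 24, and the 7 tested markers of other cell types had 0.016 and −0.28.

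The genes of the mitochondrial genome, a list chosen after its values were seen, had positive interaction values in both fits. They encode the core subunits of the respiratory chain and the 2 mitochondrial ribosomal RNAs. All 15 tested protein and rRNA genes were positive and had an unadjusted p under 0.05 over 24 and over 22 samples (6.27% and 1.75% of all genes were higher at that p), with medians of 0.68 and 0.84, and 0 passed an adjusted p of 0.05 with edgeR's quasi-likelihood test. Values over 22 samples ran from 0.50 ± 0.16 for *RNR1* to 1.06 ± 0.22 for *ND4L*. The smallest adjusted p was 0.0654, for *RNR2*, *ND1*, *ND4*, *ND4L*, *ND6* and *ATP8*. These genes are read from 1 precursor per strand, so their values are not independent of each other. At the main thresholds DESeq2 called *RNR2*, *ND1* and *ND3* over 24 samples and 14 of the genes over 22. Over all genes it called 5 of 13356 and 24 of 13416.

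*RNR2*, the large mitochondrial rRNA, had 1193, 1043, 979, 1049 and 1152 CPM in growing and 1069, 1124, 1276, 952 and 1038 in RIS samples, which overlapped. Its shHMGA1 samples lay at 749 at the lowest, 863 at the median and 956 at the highest CPM and its RIS+shHMGA1 samples at 1308 at the lowest, 1431 at the median and 1654 at the highest, with no overlap. It rose with RAS in hairpin cells by 0.74 ± 0.10 (adjusted p = 4.64e-07), and the value in vector cells was 0.011 ± 0.11. *ND1*, a complex I subunit, rose by 0.96 ± 0.14 in hairpin cells, and the vector value was −0.029 ± 0.15. Over the list of 15, RAS passed the thresholds upward for 5 genes in hairpin cells, against 22.5% of all genes. Downward it passed for 1 in vector cells, *CYTB* of complex III (−0.64 ± 0.15), against 20.5% of all genes. As a share of all counts in a sample, without TMM scaling, mitochondrial genes took 1.46% ± 0.290 (SD, n = 5) in growing, 1.13% ± 0.138 (SD, n = 6) in shHMGA1, 1.08% ± 0.0989 (SD, n = 5) in RIS and 1.20% ± 0.160 (SD, n = 6) in RIS+shHMGA1 cells over the 22 samples. The TMM factors were 0.736 to 0.956 in RIS+shHMGA1 and 0.946 to 1.16 in the other 3 groups of the 22, and the 10 most abundant genes took 15.9 to 22.4% of counts in RIS+shHMGA1 against 6.02 to 16.8% elsewhere. Scaled by total counts alone, the list median was 0.53 and that of all genes −0.30.

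**Figure D5:**
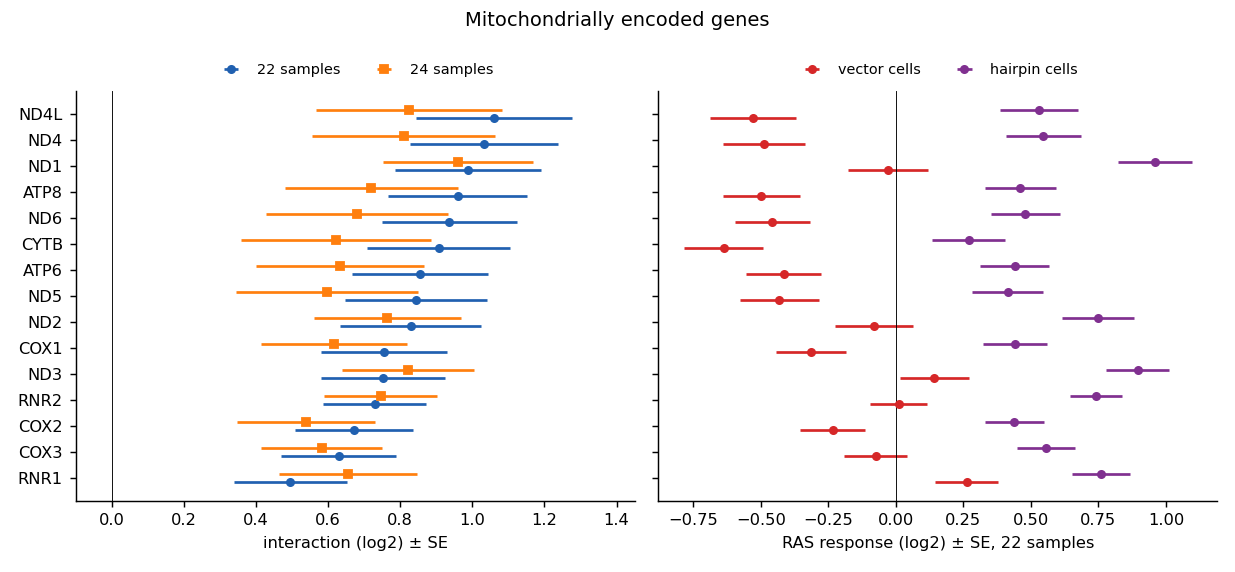
Interaction (left, log2 ± SE, over 22 and 24 samples) and RAS response (right, log2 ± SE, vector and hairpin cells over 22 samples) of the mitochondrially encoded protein and rRNA genes. All 15 interaction values are positive, and the hairpin response lies to the right of the vector response for each gene.

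The nuclear genes for respiratory chain and ATP synthase subunits, also listed after values were seen, had 74 of 78 positive values over 24 samples (median 0.72, 28 at an unadjusted p under 0.05, against 6.27% of all genes) and 69 over 22 (median 0.23, 0 at that p). RAS raised 50 of them in vector and 60 in hairpin cells over 22 samples, against 19.2% and 22.5% of all genes.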

How the data were processed

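RNA-seq counts of 24 samples of IMR90 cells with ER:HRAS(G12V) were analysed, 6 per group, and groups and replicate numbers were taken from the sample titles. The authors mapped reads to hg19 with STAR (2.5.0b), removed adapters and reads of mapping quality under 20 with cutadapt (1.10.0) and counted reads per gene with Rsubread. Deposited were unnormalised counts for 25702 Entrez identifiers, of which 23696 had a symbol in the RefSeq table. The strand setting and annotation of the counting are not given in the sources used here, so overlapping and antisense genes could share reads.

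Counts were tested with edgeR 4.0.16 in R 4.3.3: filterByExpr by group (13356 and 13416 genes kept over 24 and 22 samples), TMM library sizes, group means and the quasi-likelihood test of the interaction, without a replicate block. Calls needed a Benjamini-Hochberg adjusted p under 0.01 and an absolute log2 value over 0.58. SE is the estimate over the root of the F statistic. CPM use TMM library sizes, with a prior count of 2 before taking logs. Depth was 8698070 to 23103424 counts per sample, so precision is lowest for genes with few reads.

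The comparison, the 2 libraries left out, the gene lists and the rules were chosen with earlier results of these data known. Named were *HMGA1* and *HMGA2*, up to 10 called genes per direction with a log2 CPM of at least 2 (or the 3 with the smallest p), and per list the called members or the 2 with the largest values. Genes named after their values were seen are those past an adjusted p of 0.05, the 20 with the smallest p over 22 samples, the mitochondrially encoded genes and list members with an unadjusted p under 0.05. Alternatives were RLE, DESeq2 1.42.0, limma 3.58.1 voom with sample quality weights, the likelihood ratio test, other filters and thresholds, the replicate block and leaving out replicates. Total-count scaling and removal of mitochondrially encoded genes were chosen after seeing the data. The edgeR test was also run on simulated counts with known interactions in some genes. Those counts held no RAS response and no libraries that stood apart, so they cannot show how the test behaves with such libraries. Within each group every pair of samples differed by more than sampling noise. The hairpin target printed in the study's methods, matched to GENCODE transcripts by hand, had an exact match in *HMGA2* and none in *HMGA1*, whereas *HMGA1* and not *HMGA2* passed the test as lower in hairpin cells, so which sequence the construct carried is not settled here.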

Additional observations from a re-analysis of the deposited data

Results flagged for a closer look

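Within groups of 6, Dixon's test was run on the CPM of some of the genes described above and on the shares of counts in mitochondrial genes and in the 10 most abundant genes, 64 group tests in all. Several of these genes were named from the fit without the 2 libraries, and genes of the same library are not independent. The 5% that chance would flag among unselected, independent tests is therefore no yardstick here. Dixon's test marked 13 extreme values, and 11 of the 13 came from the library labelled growing replicate 4 or the one labelled RIS replicate 2. The library labelled growing replicate 4 was the highest growing sample for *SLC16A6* (295 CPM), *MAP3K8* (9.13 CPM), *EREG* (511 CPM), *IL24* (167 CPM), *COLEC12* (9.52 CPM) and *CCL2* (32.0 CPM), and its 10 most abundant genes took 18.4% of counts. The library labelled RIS replicate 2 was the lowest RIS sample for *SLC16A6* (82.8 CPM) and *EREG* (71.5 CPM), the highest for *TRPC6* (7.71 CPM), and had 1.94% of its counts in mitochondrial genes. The others were shHMGA1 replicate 4 for *MAP3K8* (5.67 CPM) and RIS+shHMGA1 replicate 5 for *EREG* (629 CPM), each the highest of its group.

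The RAS response differed between vector and hairpin cells by the test of the difference itself for *RGS4*, with an interaction of 1.50 over 22 samples (edgeR, adjusted p = 1.49e-04).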

How the results depend on the processing

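The call of *RGS4* over 22 samples stood in 17 of 19 alternatives and was lost with glmTreat, which left 0 genes, and without replicate 3. Among the 17, the adjusted p under 0.05 is a looser cutoff on the same fit, which the call could not fail. Over 22 samples the count of called genes was 1 with RLE, no filter, 1 CPM in 6 samples, without mitochondrially encoded genes and with numbers 1, 3, 5 and 6, 4 at an adjusted p under 0.05, 5 with total counts, 8 with numbers 1 to 4, 13 with the likelihood ratio test, 21 with voom and 24 with DESeq2, and 0 to 3 when a replicate number was left out. Over 24 samples, where 0 were called, the count was 2 at an adjusted p under 0.05, 2 with total counts, 2 with the likelihood ratio test, 7 with voom, 5 with DESeq2, 1 with numbers 1, 3, 5 and 6, 1 without both libraries, and 0 to 1 when a number or 1 of the 2 libraries was left out. It was 1, *RGS4*, without replicate 4 or without the library labelled growing replicate 4. The interaction of *HMGA1* stayed positive in all alternatives and passed the adjusted p in none, from 0.28 to 0.82 over 24 samples and from 0.38 to 0.83 over 22. Depth limits the genes with few reads in some samples, down to 3 for *MYOCD*, 6 for *PDGFB*, 7 for *IFI27*, 10 for *POLE2*, 12 for *MAP3K8*, 14 for *KRT8* and 20 for *TRPC6*.

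The replicate numbers did not meet the criterion for pairing, a correlation over 0.1 in every same-numbered pair. Deviations from group means of same-numbered samples had a mean correlation of 0.175 over 24 samples, from −0.59 to 0.83 and with 24 of 36 over 0.1, against −0.050 for different numbers, and 8 of 24 samples correlated best with their own number. With the replicate block 0 genes were called over 24 samples and 2 over 22, *RGS4* and *COLEC12*.

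Signs turned as follows. Under total counts the median of all genes was lower too (−0.41 over 24 samples and −0.30 over 22), so a turn there does not single out the gene. Which scaling is the better one was not tested. For the other settings the cause was not tested. Values of the 24 samples turned without both libraries (*MMP3* −0.74, *MMP10* −0.53, *MYH9* 0.32, *POLE2* 0.44, *RFC3* 0.43, *CDK1* 0.45, *EREG* −0.99, *DUSP4* −0.58, *ID2* 0.45, *KRT8* 0.30, *ACTG2* 0.24, *CLDN11* 0.72), with numbers 1, 3, 5 and 6 (*MMP3* −0.70, *MMP10* −0.59, *MYH9* 0.30, *POLE2* 0.56, *RFC3* 0.37, *CDK1* 0.37, *EREG* −0.88, *DUSP4* −0.64, *ID2* 0.65, *KRT8* 0.30, *ACTG2* 0.33, *CLDN11* 0.83), with voom (*MMP3* −0.63, *MMP10* −0.70, *MYH9* 0.34, *POLE2* 0.28, *RFC3* 0.52, *CDK1* 0.47, *EREG* −1.06, *DUSP4* −0.47, *ID2* 0.070, *KRT8* 0.11, *ACTG2* 0.078, *CLDN11* 0.47), with numbers 1 to 4 (*SLC16A6* 0.052, *IL24* 0.10, *DCN* −0.21, *GADD45A* −0.013, *IGFBP3* −0.28), with total counts (*EREG* −0.35, *GADD45A* −0.22, *NOTCH1* −0.37, *SLC2A3* −0.12) and with the replicate block (*EREG* −0.15, *CLDN11* 0.016). Values of the 22 samples turned with numbers 1 to 4 (*COL3A1* 0.18, *DCN* −0.041, *IFI27* 0.040), total counts (*NOTCH1* −0.074, *SLC2A3* −0.048, *ACTG2* −0.063) and voom (*COL3A1* 0.064). When a replicate number or 1 of the 2 libraries was left out of the 24, signs turned for *IL24* −0.96 to 0.24, *NOTCH1* −0.18 to 0.14, *MYH9* −0.53 to 0.14, *POLE2* −0.69 to 0.31, *RFC3* −0.57 to 0.27, *CDK1* −0.88 to 0.27, *ID2* −0.97 to 0.34, *KRT8* −0.48 to 0.17, *ACTG2* −0.43 to 0.093, *CLDN11* −0.32 to 0.56, *MMP3* −0.50 to 2.37, *MMP10* −0.27 to 2.80, *EREG* −0.77 to 0.40, *DUSP4* −0.36 to 1.11, *SLC16A6* −0.82 to 0.0032.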

Other observations

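Other genes with a small unadjusted p over 22 samples, named after their values were seen, had no call at the thresholds. *CDK5RAP2*, a centrosomal protein, had an interaction of 0.88 ± 0.20 over 22 samples and 1.17 ± 0.27 over 24 (adjusted p = 0.123 and 0.426), with a RAS response of 0.50 in vector and 1.38 in hairpin cells. *CLDN11*, a tight junction protein, had 0.72 ± 0.16 over 22 samples and −0.088 ± 0.49 over 24, and its RAS responses were −2.03 in vector and −1.31 in hairpin cells. *NID2*, a basement membrane protein, had RAS responses of −1.49 and −2.21, with an interaction of −0.72 ± 0.16 over 22 samples and −1.37 ± 0.43 over 24. *IL1R1*, the receptor for IL-1, had RAS responses of 0.50 ± 0.093 in vector and −0.075 ± 0.085 in hairpin cells, and an interaction of −0.58 ± 0.13 over 22 samples and −0.43 ± 0.15 over 24.

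By the naming rule, *FOCAD*, which encodes focadhesin, had −0.49 ± 0.13 over 24 samples and −0.39 ± 0.12 over 22, and the Entrez identifier 100507452, which has no symbol in the table, had −0.99 ± 0.24 and −0.88 ± 0.24. Among the markers of other cell types, the keratin gene *KRT8* and the smooth muscle actin gene *ACTG2* had 0.30 ± 0.21 and 0.24 ± 0.19 over 22 samples.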
